A study of Rattus norvegicus with 6 samples.

Results

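Matricellular wound proteins are secreted into the extracellular matrix, where they bind matrix fibres, growth factors and cell receptors more than they bear load. Here they are the 9 genes Tnc, Postn, Spp1, Sparc, Thbs1, Thbs2, Fn1, Ccn1 and Ccn2, taken by symbol from the array's annotation. Of the 9, 8 had at least 1 probe set named for that gene alone. Thbs1 had none, so its expression was not analysed here. The 8 stand among 10585 genes tested, and all 8 passed the filter on dim signal. Where a gene had several probe sets the brightest on average was used, which concerned Sparc alone, with 2 probe sets.

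In adult tissue at rest many of these genes are expressed at a low level, and injury induces them in fibroblasts, macrophages and other cells. Tenascin-C and periostin are known from granulation tissue, and periostin also from the periodontal ligament and gingiva. The CCN proteins are transcribed in response to TGF-β and to mechanical load through YAP and TEAD, and osteopontin is a product of both bone cells and activated macrophages. Fibronectin is the adhesive glycoprotein of the provisional matrix on which cells move into a wound.

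The samples came from male Sprague Dawley rats, an outbred strain, which lost both upper first molars to extraction when 4 weeks old. A titanium alloy implant was set in the left socket only, and tissue was taken 4 weeks after surgery. Peri-implant soft tissue is the left side and oral mucosal tissue is the mucosa healed over the empty right socket, with 3 arrays in each group. The mucosa that serves as control is thus itself a healed wound, no unwounded mucosa was compared, and implant, tissue and side of the mouth cannot be told apart. The labels do not state that the arrays of a group came from separate rats, nor whether tissue was pooled, so a p-value here measures only how far these arrays differ, which may be technical.

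The 6 arrays had median signals of 6.62 to 6.78 on the log2 scale, and within a group any pair correlated at 0.965 to 0.981 over the probe sets tested. Epithelium was present in both groups by its markers, with the basal keratin Krt5 at 15.18 ± 0.06 in peri-implant tissue and 15.69 ± 0.04 in mucosa (SD, n = 3). The 8 matricellular wound genes read between 7.45 and 13.64, above the dim level of 5.90 (the 40th percentile of all single values). They were also below the brightest signal of any array, 16.17 or more. A probe set's signal depends on its probes as well as on the transcript, so levels are compared between tissues for 1 gene and not between genes.

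Promoter sequence was on hand for 7 of the 9 genes from RefSeq (GRCr8), not for Thbs2 or Fn1. Of the 7, 6 had an expression value here and Thbs1 had none. Shown are the 250 bases before the annotated start of Tnc, which had the largest fall, of Spp1, which had the largest rise, and of the CCN pair. All 4 genes lie on the minus strand, and each sequence reads 5′ to 3′ in the direction of transcription. Their positions are chr5:82476132-82476381 for Tnc, chr14:5619805-5620054 for Spp1, chr2:237225690-237225939 for Ccn1 and chr1:22624615-22624864 for Ccn2. Capitals mark matches on either strand to GGAATG (the TEAD type), CAGAC (the SMAD type), TGAGTCA (the AP-1 type), TGTGGT or TGCGGT (the RUNX type) and TATAAA, and no matches overlapped.
Tnc: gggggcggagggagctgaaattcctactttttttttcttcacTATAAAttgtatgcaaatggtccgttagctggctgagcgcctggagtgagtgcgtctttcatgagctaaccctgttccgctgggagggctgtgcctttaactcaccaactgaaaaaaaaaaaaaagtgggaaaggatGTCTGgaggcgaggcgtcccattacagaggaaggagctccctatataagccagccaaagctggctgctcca
Spp1: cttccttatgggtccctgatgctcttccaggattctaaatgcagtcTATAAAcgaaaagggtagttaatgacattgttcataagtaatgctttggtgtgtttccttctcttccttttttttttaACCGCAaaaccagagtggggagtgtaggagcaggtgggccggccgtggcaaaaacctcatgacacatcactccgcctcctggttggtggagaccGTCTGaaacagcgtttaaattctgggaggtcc
Ccn1: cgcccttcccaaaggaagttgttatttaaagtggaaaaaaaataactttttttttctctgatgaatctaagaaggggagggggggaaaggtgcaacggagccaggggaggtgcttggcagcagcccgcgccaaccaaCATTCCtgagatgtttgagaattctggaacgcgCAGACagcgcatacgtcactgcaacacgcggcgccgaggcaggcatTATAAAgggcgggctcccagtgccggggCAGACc
Ccn2: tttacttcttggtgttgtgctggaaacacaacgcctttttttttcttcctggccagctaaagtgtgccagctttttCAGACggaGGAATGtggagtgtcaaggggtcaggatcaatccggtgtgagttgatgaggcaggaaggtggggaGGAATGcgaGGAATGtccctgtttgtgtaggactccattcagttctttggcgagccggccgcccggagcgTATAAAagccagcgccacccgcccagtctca

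The TEAD-type hexamer occurred 3 times before Ccn2, starting 166, 101 and 92 bases ahead of the start, and once before Ccn1, 113 bases ahead on the other strand. Sparc and Thbs1 each held it once, so 4 of the 7 promoters had a match, against 12.1% of 33469 rat promoters over the same 250 bases. No match was found before Tnc, Postn or Spp1. The SMAD-type pentamer was present in 6 of 7, where 42.9% of all promoters hold it, and TGCGGT in Spp1 alone, 126 bases ahead, where 5.02% of all promoters hold it. TGTGGT was found before Sparc only and is in 14.5% of all promoters. TATAAA was found in 5 of 7 and is in 12.9% of all. It started 208 and 204 bases ahead in Tnc and Spp1, and 44, 34 and 31 bases ahead in Postn, Ccn1 and Ccn2. TGAGTCA was found in 0 of 7 and is in 4.05% of all. A match describes letters in this window and does not show that a factor binds there.

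**Figure D1:**
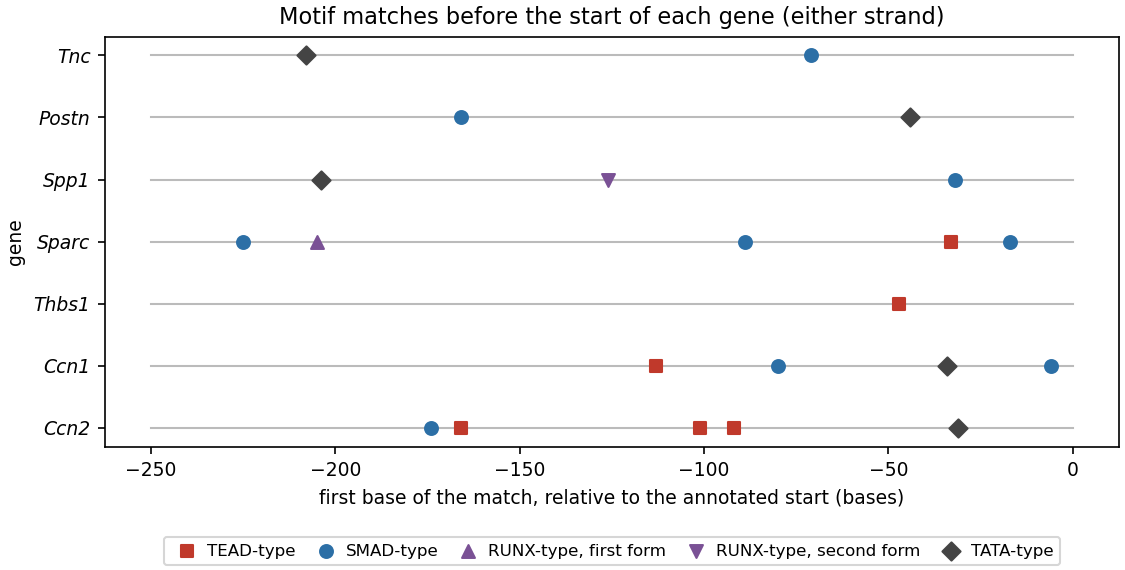
Each row is 1 gene and each marker the first base of a motif match on either strand, placed by its distance in bases before the annotated start. Ccn2 has 3 TEAD-type matches, while Tnc, Postn and Spp1 have none.

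Peri-implant tissue had lower signals for 6 of the 8 genes and higher signals for the other 2. The 6 that fell were Tnc, Ccn2, Postn, Thbs2, Sparc and Ccn1, with differences from -2.69 to -0.67 on the log2 scale, and those that rose were Spp1 and Fn1. All 8 passed an adjusted p of 0.05 in the limma fit over every probe set tested, where 26.1% of the 10585 genes passed, 15.2% in the upward and 11% in the downward direction. For none of the 8 did the groups overlap, which held for 41.9% of all genes (24% higher, 17.9% lower). The median difference over the 8 was -0.80, beside 0.03 over all genes tested. This list was drawn up with results of these data known, so its counts are a description. In bulk tissue fewer cells of a type and less RNA per cell cannot be told apart.

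**Figure D2:**
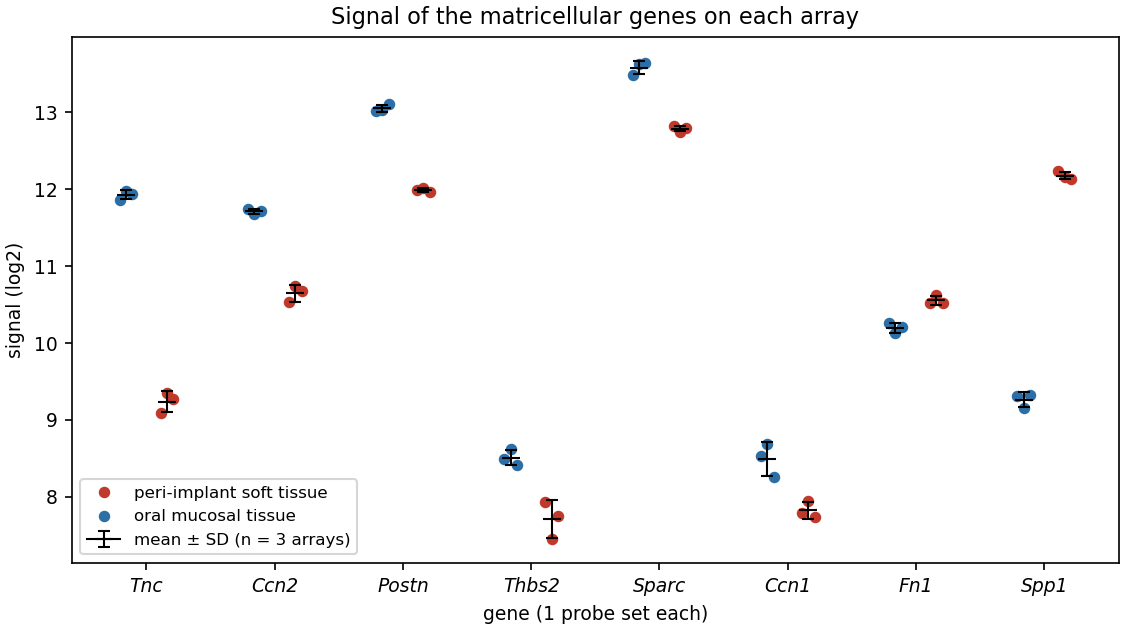
Points are the log2 signals of single arrays for 8 genes, blue for oral mucosa and red for peri-implant tissue, with mean ± SD (n = 3). No gene's groups overlap, and levels are not comparable between genes.

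Tenascin-C, encoded by Tnc, is a large hexameric glycoprotein that loosens fibroblast adhesion and is a standard marker of active wound matrix. Its signals were 9.09, 9.35 and 9.27 in peri-implant tissue and 11.86, 11.98 and 11.94 in mucosa. Every mucosal array lay at least 2.51 above every peri-implant array, while arrays of 1 tissue were within 0.26 of each other. Tnc was 6.46-fold lower (95% interval 5.66 to 7.36), a fall of 2.69 (SE 0.088, limma adjusted p = 2.41e-10). Only 14 of the genes tested, Tnc among them, had a difference as low or lower, or 0.13%.

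Postn encodes periostin, which takes part in collagen assembly and binds αv integrins. The peri-implant arrays read 11.99, 12.02 and 11.97, and the mucosal arrays 13.02, 13.03 and 13.11. Both tissues were tight, with a gap of 1.00 between them against ranges of 0.054 and 0.089 within them. Postn was 2.08-fold lower, a fall of 1.06 (SE 0.068, adjusted p = 1.46e-07 in limma).

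Sparc encodes osteonectin, a collagen-binding protein made in quantity by fibroblasts and bone cells. Peri-implant arrays read 12.82, 12.75 and 12.80, below the mucosal arrays at 13.48, 13.63 and 13.64. The fall was 0.79 (SE 0.075, limma adjusted p = 5.40e-06), or 1.73-fold. The second, dimmer probe set gave 10.48, 10.61 and 10.45 against 11.45, 11.51 and 11.59. It fell by 1.00 (SE 0.078, limma adjusted p = 8.65e-07), so both probe sets went the same way.

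Thbs2 encodes thrombospondin-2, an inhibitor of angiogenesis that also affects collagen fibril form. Its signals were 7.94, 7.45 and 7.75 in peri-implant tissue and 8.50, 8.62 and 8.42 in mucosa. The groups stood apart by 0.48, about as much as the peri-implant arrays differed among themselves, 0.49. Thbs2 was 1.74-fold lower (95% interval 1.33 to 2.27, limma adjusted p = 0.00539).

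Ccn1 and Ccn2 encode CYR61 and connective tissue growth factor, integrin ligands that act on fibroblasts and vessels. Ccn2 read 10.53, 10.74 and 10.67 in peri-implant tissue and 11.74, 11.67 and 11.72 in mucosa. Mucosal arrays agreed within 0.068, and Ccn2 fell by 1.06 (SE 0.078, limma adjusted p = 4.93e-07), or 2.09-fold. Ccn1 read 7.79, 7.95 and 7.74 in peri-implant tissue and 8.53, 8.69 and 8.26 in mucosa. Its mucosal arrays were spread over 0.43, more than the gap of 0.31 between the tissues. Ccn1 fell by 0.67 (SE 0.17, limma adjusted p = 0.0126), and without mucosal array 2 it fell by 0.57 and was not called (limma adjusted p = 0.0520). The alternatives for Ccn1 gave adjusted p-values of 0.00613 to 0.0520.

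Tnc, Ccn2 and Postn were the 3 of the 8 that fell at least 2-fold. Among all genes tested, 2.14% were past the threshold and lower by that much.

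Spp1 encodes osteopontin, an acidic ligand of integrins and CD44 that attracts macrophages and binds mineral. It read 12.23, 12.16 and 12.14 in peri-implant tissue and 9.31, 9.15 and 9.33 in mucosa. Each peri-implant array lay at least 2.81 above each mucosal array, and arrays of 1 tissue agreed within 0.17. Spp1 was 7.53-fold higher (95% interval 6.67 to 8.49), a difference of 2.91 (SE 0.080, limma adjusted p = 4.44e-11). Of the genes tested, 52 including Spp1, or 0.49%, had a difference as high or higher.

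Fn1, fibronectin, rose by much less. Its signals were 10.52, 10.63 and 10.51 in peri-implant tissue against 10.26, 10.13 and 10.21 in mucosa. The groups were 0.25 apart, and each was spread over less than that. The difference was 0.35 (SE 0.082), or 1.28-fold (95% interval 1.13 to 1.44, limma adjusted p = 0.00681), and 19.9% of genes had one as high or higher. The call was lost with median centring (limma adjusted p = 0.0562) and with no variance trend (0.0510), and the alternatives spanned 0.00422 to 0.0562.

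**Figure D3:**
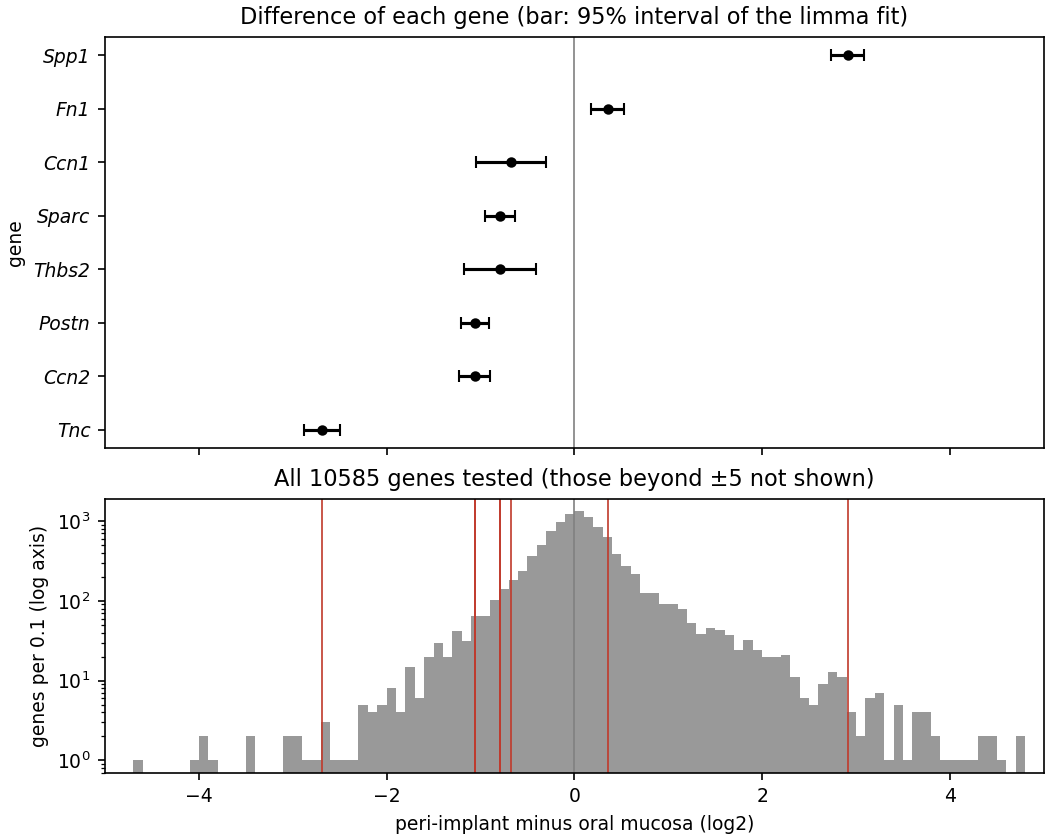
The upper panel gives each gene's difference with its 95% interval, from -2.69 for Tnc to 2.91 for Spp1. The lower panel is the distribution over all 10585 genes tested on a log count axis, with red lines at the 8 genes.

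A further list of 30 matricellular and related genes moved in both directions. Of 28 with a probe set, 17 passed the filter, 7 rose, 6 fell and 4 did not pass, with a median of 0.52. Some relatives of the genes above went the same way and others the opposite way. Tnn, tenascin-N, fell with Tnc, from 11.13 ± 0.05 to 9.89 ± 0.13, by 1.24 (limma adjusted p = 3.28e-07). Tgfbi, a periostin relative, fell from 13.79 ± 0.08 to 12.72 ± 0.04, by 1.07 (limma adjusted p = 3.22e-07). Against the fall of Sparc, its relatives Sparcl1 and Smoc2 rose by 1.24 and 1.11 (limma adjusted p = 5.54e-07 and 9.46e-07). With the mean of its 3 probe sets the difference of Smoc2 was 0.25 and not called (limma adjusted p = 0.734, the highest of alternatives that began at 3.03e-07).

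The relatives in this paragraph were picked with their values in view. Of the thrombospondins, Thbs4, known from muscle and tendon, rose from 5.38 ± 0.64 to 8.25 ± 0.14 and Comp, cartilage oligomeric matrix protein, from 4.67 ± 0.27 to 6.79 ± 0.35. Both were dim in mucosa, and with values raised to the dim level their differences were 2.30 and 0.89 in place of 2.87 and 2.12. Thbs3 read 5.40 ± 0.30 against 6.53 ± 0.47 in mucosa and did not pass (limma adjusted p = 0.0603), though it did with no variance trend (0.0421, in a span of 0.0421 to 0.202). Ccn5, a CCN protein without the C-terminal module, rose by 1.82 (SE 0.20, limma adjusted p = 2.16e-05), from 6.72 ± 0.20 to 8.54 ± 0.07. Ccn4 fell by 1.47 (limma adjusted p = 0.0334) to a dim level, by 0.92 with the dim level as floor, and 6 of 15 alternatives, among them those without peri-implant array 2 or any 1 mucosal array, ended its call. Without peri-implant array 2 it fell by 0.96 (limma adjusted p = 0.115, the highest of the 15, with 0.00757 the lowest). Ibsp, bone sialoprotein, an acidic integrin ligand of the same family as osteopontin, fell by 1.49 (SE 0.18, limma adjusted p = 5.64e-05), from 8.60 ± 0.18 to 7.11 ± 0.07.

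Receptors for these proteins also went both ways. Of 26 listed, 23 had a probe set and 19 were tested, of which 2 rose, 6 fell and 11 did not pass, with a median of -0.17. Itgb1, the β1 integrin chain shared by many fibronectin and tenascin receptors, fell by 0.50 (SE 0.071, limma adjusted p = 2.06e-04). Itgb5, a partner of the αv chain, fell by 0.39 (limma adjusted p = 8.19e-04), and Cd44, which binds osteopontin, fell by 0.53 (limma adjusted p = 6.05e-04). Itgb2, the leukocyte integrin chain, rose by 1.37 (SE 0.13, limma adjusted p = 7.74e-06). Among the 19 tested receptors the largest difference was that of Itga11, a collagen-binding integrin chain of fibroblasts picked with its value in view, at 4.99 ± 0.16 against 6.63 ± 0.31 (difference -1.63, limma adjusted p = 0.00884). It was dim in peri-implant tissue, and with the dim level as floor its difference was -0.73. Itgav, the αv chain itself, read 11.13 ± 0.05 against 11.35 ± 0.26 and did not pass (limma adjusted p = 0.175). The mean of its 3 probe sets gave 0.11 in place of -0.22, and it passed in 2 of 17 alternatives (limma adjusted p 0.00487 to 0.501 over all 17).

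Genes of TGF-β and mechanical signalling, which act upstream of several members, were also mixed. Of 30 listed, 26 had a probe set and 25 were tested, of which 4 rose, 6 fell and 15 did not pass, around a median of -0.10. Tgfb1 read 7.26 ± 0.27 against 6.94 ± 0.21 in mucosa (limma adjusted p = 0.417). Tgfb3 rose by 0.81 (SE 0.094, limma adjusted p = 3.29e-05), and Ltbp1, which holds latent TGF-β in the matrix, by 1.20 (limma adjusted p = 2.69e-07). Egr1, an immediate early transcription factor, rose by 0.68 and Ajuba, a LIM-domain adaptor of the Hippo pathway, fell by 0.64 (limma adjusted p = 3.17e-04 and 6.12e-04). With the mean of its 2 probe sets Ajuba fell by 0.42 and was not called (limma adjusted p = 0.0521, the highest of alternatives that began at 2.24e-04). Named after their values had been seen, Tgfb2, Smad3, a transducer of TGF-β signals, and Wwtr1, the YAP paralogue TAZ, differed by -0.71, -0.72 and -0.51 (limma adjusted p = 0.00698, 0.00303 and 0.00219). Tgfb2 was not called with no variance trend (limma adjusted p = 0.0514, of 0.00264 to 0.0514), nor Smad3 by the mean of its 2 probe sets (0.367, of 0.00205 to 0.367).

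**Figure D4:**
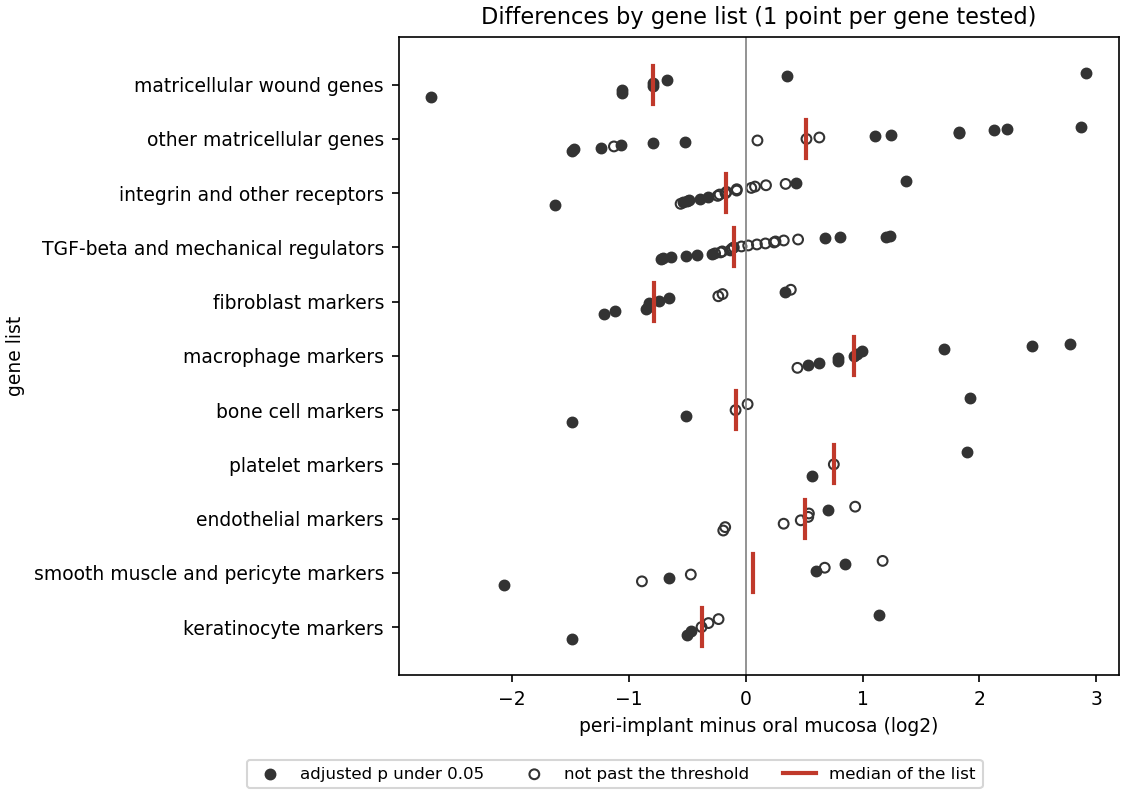
Each point is a gene tested, placed by its difference, filled where the adjusted p was under 0.05, and the red bar is the list's median. The 8 matricellular wound genes span -2.69 to 2.91, and macrophage and fibroblast markers lie mostly on opposite sides of 0.

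Fibroblast markers fell alongside the lower genes. All 12 were tested: 8 fell, 1 rose and 3 did not pass, around a median of -0.79 and with differences from -1.21 to 0.39. Their summed signal was 15.58 to 15.61 in peri-implant tissue and 16.25 to 16.38 in mucosa. Such a sum, here and for the lists below, is taken on the linear scale and set mostly by the list's brightest probe sets. S100a4, Col1a1, Col3a1 and Lum differed by -1.21, -0.83, -0.83 and -0.86, while Dcn, named after its value had been seen, rose by 0.34. Dcn was not called with no variance trend (limma adjusted p = 0.0638, of 0.00240 to 0.0638). None of the 12 fell as far as Tnc, whose interval was -2.88 to -2.50, and the falls of Sparc and Thbs2 were near the markers' median. The part of fibroblast number in these falls was not tested.

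Macrophage markers rose alongside Spp1. Of 11 tested, 10 rose, 0 fell and 1 did not pass, with a median of 0.93, and the summed signal of the list was 14.30 to 14.34 against 13.25 to 13.47 in mucosa. Fcgr2b rose by 2.78, Cd14 by 1.00, Aif1 by 2.45 and Mpeg1 by 1.69. The sizes for Aif1 and Mpeg1 rest on 1 of 2 probe sets. The mean of both gave 0.45 and 0.24 and was not called (limma adjusted p = 0.395 and 0.732). Spp1 stood above all 11 in size of difference, but the largest, Fcgr2b at 2.78 (SE 0.16), was close to its 2.91 (SE 0.080). Over the alternatives Fcgr2b spanned 2.65 to 2.95 and Spp1 2.86 to 2.94, so their order is not settled. The part of macrophages in the rise of Spp1 was not tested.

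Bone cell markers, another possible source of osteopontin, went both ways. Of 5 tested, 1 rose, 2 fell and 2 did not pass (median -0.09), and the list's summed signal of 12.34 to 12.37 overlapped the 12.34 to 12.49 of mucosa. Ibsp is given above, Ctsk, a protease of osteoclasts and fibroblasts, fell by 0.51 and Alpl, alkaline phosphatase, rose by 1.92 from a dim level, or by 1.27 with that level as floor. Alpl was not called with no variance trend (limma adjusted p = 0.0773, of 0.00168 to 0.0773). Bglap, osteocalcin, the largest difference of this list and picked with its values in view, was left untested by the filter on mean signal. It read 7.16, 6.97 and 6.75 in peri-implant tissue and 4.49, 1.61 and 2.05, all dim, in mucosa, so its groups did not overlap. The osteoclast enzyme Acp5, named after its value had been seen, read 11.70 ± 0.02 against 11.68 ± 0.13. It was the brightest of the list and weighed most in the summed signal, in which Bglap and Alpl counted for little. The part of bone cells in the rise of Spp1 was not tested.

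Of 3 platelet genes tested 2 rose, Pf4 by 1.89 and Ppbp by 0.56, with a median of 0.75. Among 8 endothelial genes 1 rose, the receptor Kdr by 0.70, and 0 fell (median 0.50), and 6 of 16 alternatives ended the call for Kdr (limma adjusted p of 0.0250 to 0.869). Of 8 smooth muscle and pericyte genes Rgs5 and Myl9 rose by 0.85 and 0.60, while Cspg4 and Acta2 differed by -2.07 and -0.66 (median 0.06). For Acta2, smooth muscle actin, 8 of 16 alternatives ended the call (limma adjusted p of 0.00854 to 0.152), and for Myl9 the fit without peri-implant array 2 did (0.0673). Of 7 keratinocyte markers Krt1 rose by 1.14 and Krt5, Perp and Col17a1 differed by -0.50, -0.47 and -1.49 (median -0.38), with the call for Perp lost in 8 of 17 alternatives (limma adjusted p of 8.11e-05 to 0.180). Neutrophil markers rose in 4 of 5 (median 1.89) and 1 did not pass. The 4 were S100a8, S100a9, Csf3r and Fcgr3a, by 1.89, 2.77, 2.26 and 0.88. S100a8 and S100a9 were bright in mucosa as well, at 13.98 and 13.38, and the part of neutrophils was not tested. Skeletal muscle markers rose in 1 of 3, Mb, myoglobin, which was dim in mucosa (median -0.02). The muscle actin Acta1, picked with its values in view and left untested by the filter, went the other way, at 6.90, 6.97 and 6.93 in mucosa against dim readings of 2.52, 1.55 and 4.53 in peri-implant tissue. No gene of these cell type lists was at 0 on any array.

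**Figure D5:**
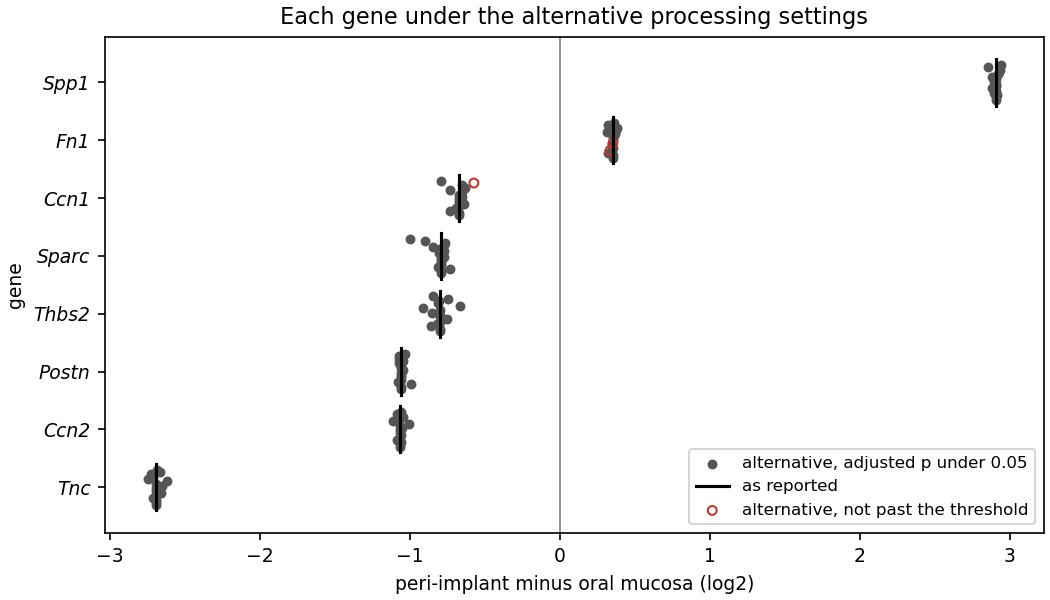
Each point is a gene's difference under 1 alternative processing setting, open red where the adjusted p was 0.05 or more, and the black bar is the value reported. No gene changed sign, and calls were lost only for Fn1, in 2 settings, and Ccn1, in 1.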

How the data were processed

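Amplified, biotin-labelled RNA was hybridised to 1 Affymetrix 3′ array per sample, per the labels' protocols. The deposited values are log2 signals on a scale set by the authors before deposit: back-transformed, each array had a mean of 500.2 once 2% was trimmed from either end. Which software and background correction they used is not given in the sources used here. Values were used as deposited. Of 31042 non-control probe sets, the 18625 with a mean above the 40th percentile (5.68) were tested, peri-implant against mucosal, with limma 3.58.1 in R 4.3.3 (variance trend, two-sided, Benjamini-Hochberg adjustment over the 18625, threshold 0.05). The code of the fit was tried on simulated data with independent noise and known differences, which does not bear on pooling or pairing of samples. Symbols came from the array's annotation: 20826 probe sets had 1, 436 had several and 9780 had none. A gene's brightest probe set on average stood for it. Group values are means ± SD over 3 arrays.

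Genes named are the members, up to 4 of the smallest p past the threshold per list, the 3 nearest profiles per member, 4 set receptors and ligands, and others said to be chosen later. Members and lists were chosen with earlier results of these data known. Same-numbered arrays did not vary together over the tested probe sets (correlation of deviations -0.079 to 0.027), and they were not paired. The sample titles do not say that a number stands for a rat. The fit may therefore ignore a pairing of the sides within rats under another numbering. Intervals of the fit cover 95%.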

Additional observations from a re-analysis of the deposited data

How the results depend on the processing

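Under the alternatives run (filter, scaling, floor, pseudocount, variance model, array weights, probe set choice and each array left out), Tnc, Postn, Spp1, Sparc, Thbs2 and Ccn2 kept their direction and call, and no member reversed. The difference of Fn1 was 0.33 with median centring (limma adjusted p = 0.0562) and 0.35 without the variance trend (adjusted p = 0.0510 in limma), which left 1 member higher. With arrays left out in turn Ccn1 lay between -0.79 and -0.57, and receptors that rose numbered 1 to 2. Without the variance trend 718 genes fell in place of 1161, 1 receptor rose and 3 regulators fell. With the filter at the 60th percentile 4 of the other matricellular genes rose, because others, Thbs4 and Comp among them, were then too dim to be tested. Itgav turned to 0.11 with the mean of its probe sets, and Acp5, near 0, to -0.0037 with median centring, -0.0088 with array weights and, with arrays left out in turn, from -0.059 (without mucosal array 2) to 0.057. For 80 other genes, those named here among them, 1225 of 1290 alternative values kept direction and call, 52 lost a call, 9 gained one and 4 reversed. The replicate block gave 1562 genes higher and 1142 lower, against 1606 and 1161, and changed no member's call. A pair of groups of 3 arrays limits the precision.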

Other observations

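The profiles most like each member's were sought among all genes tested, by the Euclidean distance between the 6 array values after each gene's own mean was removed. With 2 groups of 3 arrays this likeness mostly reflects the size of the group difference, and nothing follows from it about function.

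For Tnc the nearest were Pla2g4a, the cytosolic phospholipase A2 (distance 0.31), Cd55, which restrains complement (0.32), and Eppk1, the epithelial plakin epiplakin (0.43), with differences of -2.49, -2.61 and -2.35. For Spp1 they were Car2, carbonic anhydrase 2 (0.17), Mgp, matrix Gla protein, an inhibitor of calcification (0.28), and Creg1 (0.28), higher by 2.87, 2.88 and 3.03. For Ccn2 they were Lamb3, the laminin β3 chain (0.10), Aqp9, an aquaporin (0.15), and Itga6, the integrin α6 chain of hemidesmosomes (0.16), with differences of -1.10, -1.09 and -1.03. Lamb3 and Aqp9 were also near Postn, at 0.12 and 0.094, behind Cyb5r3 at 0.076.

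Thbs2 was nearest to Pdgfra, the platelet-derived growth factor receptor of fibroblasts (0.21), then to Mbp (0.22) and Pcdh20 (0.23). The mean of the probe sets of Mbp was not called (limma adjusted p = 0.441), and Pcdh20 did not pass as measured (limma adjusted p = 0.0532). Sparc was nearest to Ptpn21, Lurap1l and Map4, a microtubule-associated protein (0.11, 0.11 and 0.12). Ccn1 was nearest to Spire1, Kif5b, a kinesin, and Pxylp1 (0.18, 0.19 and 0.20), and Fn1 to Sh3bgrl3, Alox12, a lipoxygenase, and Jagn1 (0.052, 0.069 and 0.070). For Jagn1, 10 of 16 alternatives ended the call (limma adjusted p of 0.0200 to 0.135).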
